A study of Mus musculus with 2 samples.

Results

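Ctgf (also named Ccn2) and Cyr61 (also named Ccn1) were examined in a map of c-Fos made by chromatin immunoprecipitation and sequencing (ChIP-seq). Members were the c-Fos peaks whose centre lay within 250 kb of the start of either gene in the mouse build mm9. The starts were chromosome 10 position 24315200 for Ctgf and chromosome 3 position 145313000 for Cyr61, both known only to within a few kb. Of the 10870 peaks in the list, 7 lay around Ctgf and 3 around Cyr61, 10 in all.

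The cells were mouse bone marrow-derived mesenchymal stem cells, stromal precursors of osteoblasts, chondrocytes and adipocytes. They were p53 knockout, so they lacked the tumour suppressor p53, and expressed cFos, per the labels at fewer than 20 passages. The ChIP used 50000000 fixed cells and 10 ug of anti-cFos antibody. Its 1 library was accompanied by 1 input library of DNA without antibody, both from cells of the same genotype, and the labels name no cells with p53 or without the expressed cFos. How p53 was removed, how cFos was expressed and whether the cells were 1 clone are not stated by the labels.

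Both genes encode secreted matricellular proteins of the CCN family, which lie in the extracellular matrix and bind integrins and heparan sulphate proteoglycans on nearby cells. Ctgf, connective tissue growth factor, is induced by TGF-beta and is known for its part in cartilage growth and in fibrosis. Cyr61, cysteine-rich angiogenic inducer, is an immediate early gene that serum and growth factors switch on quickly. Both are standard readouts of YAP and TAZ, coactivators that reach DNA through TEAD proteins, and both also respond to serum response factor. c-Fos and its Jun partners belong to AP-1, a transcription factor family often found at the same enhancers as TEAD.

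The peak list was the 1 data file used, so depth per library is unknown, peak heights cannot be given and there is no replicate error. The authors' score is their own value for each peak, has no stated scale and serves here to rank peaks within the list. The lowest score in the list was 50.01, so sites of lower score are not in it. The labelled cell type could not be checked against marker genes, because a peak list holds no expression values.

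Around Ctgf, c-Fos peaks were spread over both sides of the window, and the nearest centre lay 14.8 kb from the given start, or 9.78 to 19.8 kb with the start moved by 5 kb either way. Of the 7 peaks, 3 lay at lower coordinates than the start and 4 at higher ones. This nearest peak ran from 24329605 to 24330349 on chromosome 10, at higher coordinates than the start. It was a narrow peak of low score, 745 bp wide with a score of 65.86, and 22.2% of all peaks scored lower.

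The peak of highest score near Ctgf was the second nearest. It ran from 24273613 to 24274654, 41.1 kb from the start towards lower coordinates. Its score of 168.87 ranked 2684th of 10870, so that 75.3% of the list scored lower, and its width of 1042 bp was the largest of the 7. The only other Ctgf site with a score of at least 100 ran from 24485020 to 24486005, 170 kb from the start towards higher coordinates. It was 986 bp wide and scored 137.61. These 2 sites thus lay on opposite sides of the gene.

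The remaining 4 Ctgf peaks scored below 100. At lower coordinates, the site from 24178261 to 24179178 lay 136 kb away and had a score of 51.93, close to the lowest in the list, with a width of 918 bp. The site from 24116744 to 24117698 lay 198 kb away, spanned 955 bp and scored 92.68. At higher coordinates, the site from 24458925 to 24459512 lay 144 kb away, and scored 65.09. Its 588 bp placed it among the narrowest peaks of the whole list, in which 0.414% were narrower. The site from 24542528 to 24543415 lay 228 kb away, spanned 888 bp and scored 84.51.

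Around Cyr61 there were fewer c-Fos peaks, but 1 of them was close to the gene. It ran from 145316307 to 145317147 on chromosome 3, with its centre 3.73 kb and its nearer edge 3.31 kb from the given start. Since that start is accurate only to a few kb, neither its side of the start nor whether it reached the promoter can be told. It was 841 bp wide and its score of 55.33 was low, with 8.79% of all peaks below it.

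The Cyr61 site of highest score was the next one out, from 145338973 to 145339980. Its centre lay 26.5 kb from the start towards higher coordinates, which is upstream, as RefSeq places Cyr61 on the minus strand. It was 1008 bp wide and scored 146.53, so that 69.1% of the list scored lower. The third site, from 145133981 to 145134737, lay on the downstream side at 179 kb, spanned 757 bp and scored 71.54. No other peak had its centre between it and the peak nearest the gene, a gap of 182 kb.

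The promoter of Cyr61 is shown because the peak nearest to either gene was the one beside its start. The RefSeq promoter table held promoters for 2 of the 6 CCN genes, Ccn1 (Cyr61) and Ccn6 (Wisp3); Ccn2 (Ctgf), Ccn3 (Nov), Ccn4 (Wisp1) and Ccn5 (Wisp2) had no entry. The sequence is the 250 bases before the Ccn1 start in GRCm38.p6, a later build than that of the peaks, at chr3:145649986-145650235 on the minus strand, written in the direction of transcription with the match to the TEAD motif in capitals.
Ccn1: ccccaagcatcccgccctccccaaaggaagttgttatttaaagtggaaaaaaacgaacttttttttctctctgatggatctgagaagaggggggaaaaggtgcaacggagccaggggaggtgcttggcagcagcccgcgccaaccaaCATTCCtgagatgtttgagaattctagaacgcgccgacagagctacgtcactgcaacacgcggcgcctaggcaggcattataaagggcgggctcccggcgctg

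The search covered both strands of the 250 bases before and 50 bases after the start. It used GGAATG for TEAD, TGACTCA for AP-1, TGACGTCA for CRE, the cyclic AMP response element, and the CArG box bound by serum response factor. Of the 32851 promoters in the table, 14.7% held at least 1 match to GGAATG. The Ccn1 window held 1, read on the opposite strand and therefore printed as the reverse complement. TGACTCA, which 5.20% of promoters held, TGACGTCA, which 1.79% held, and the CArG box, which 1.63% held, had no match in it. The Ccn6 window matched none of the 4. These are matches of letters in a reference sequence, and they say nothing of which factor was bound. Bases beyond the searched promoter windows, and the sequences of the c-Fos peaks as such, were not examined. A missing match therefore does not mean that the gene or a peak lacks the motif.

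**Figure D1:**
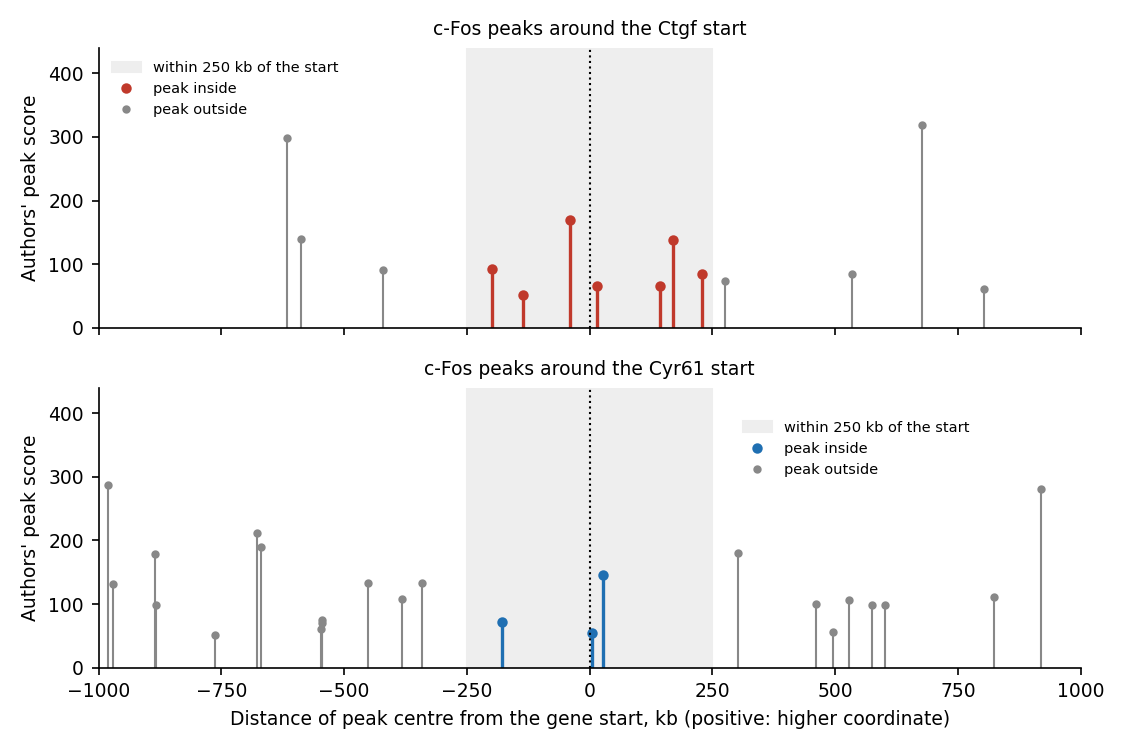
Authors' peak score (vertical axis) against the distance of the peak centre from the gene start in kb (horizontal axis, positive towards higher coordinates) for Ctgf (top) and Cyr61 (bottom). The shaded 250 kb on either side hold 7 peaks around Ctgf and 3 around Cyr61, in colour, and the grey peaks lie outside it.

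Beyond 250 kb the order of both genes changed. Between 250 and 500 kb from the start there were 2 further peaks around Ctgf, with scores of 73.26 and 91.31, and 6 around Cyr61, with scores from 56.84 to 180.53. Within 500 kb each gene thus had 9 peaks. Between 500 and 1000 kb there were 5 around Ctgf, scoring up to 318.4, and 15 around Cyr61, scoring up to 286.5, so that 14 and 24 peaks lay within 1000 kb. In this list Ctgf had the more peaks within 250 kb and Cyr61 the more within 1000 kb.

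At the limit of 250 kb itself, the outermost Ctgf peaks inside it lay at 198 kb (score 92.68) and 228 kb (score 84.51), and the first outside it at 422 kb on the lower side (score 91.31) and 275 kb on the higher side (score 73.26). For Cyr61 the outermost peaks inside lay at 179 kb on the lower side (score 71.54) and 26.5 kb on the higher side (score 146.53), and the first outside at 343 kb (score 134) and 302 kb (score 180.53).

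**Figure D2:**
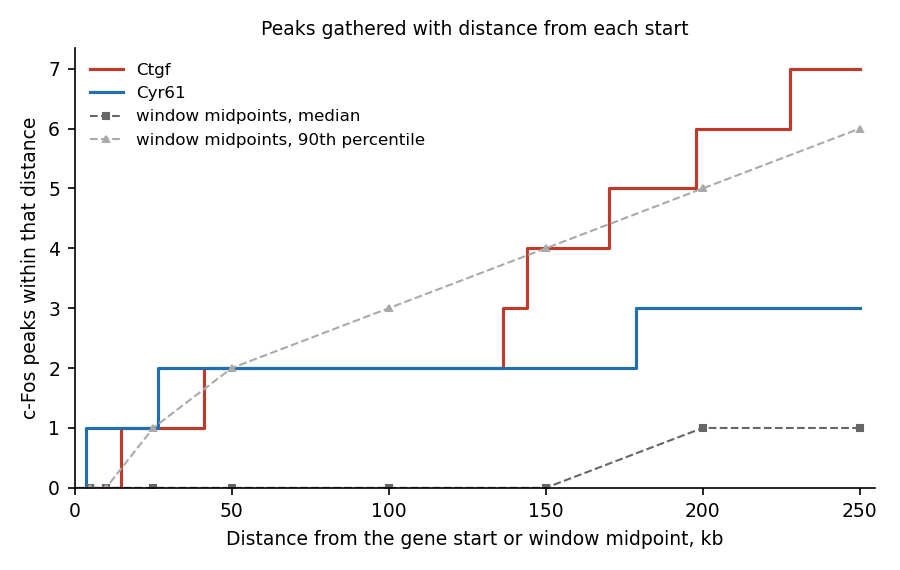
Number of c-Fos peaks (vertical axis) within a given distance in kb (horizontal axis) of the Ctgf and Cyr61 starts, with the median and the 90th percentile over the midpoints of 4763 autosomal 500 kb windows. Both genes have 2 peaks from 50 kb to 100 kb, after which Ctgf rises to 7 and Cyr61 to 3.

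The gene windows were set beside 4763 windows of 500 kb laid end to end along the 19 autosomes. These windows are not centred on genes, so the comparison places Ctgf and Cyr61 among stretches of genome and not among other genes. A window held a median of 1 peak and a mean of 2.24, and 40.0% of the windows held none. The fullest held 22.

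With 7 peaks, the Ctgf window was in the upper tail of this distribution. Of the autosomal windows, 9.30% held at least as many, and on chromosome 10 alone 21 of 249 (8.43%) did. With 3 peaks, the Cyr61 window was closer to the middle, as 34.0% of the autosomal windows and 111 of the 308 on chromosome 3 (36.0%) held at least as many. Exact Poisson 95% intervals were 2.81 to 14.4 for the 7 peaks of Ctgf and 0.619 to 8.77 for the 3 of Cyr61. They assume that peaks fall independently, and they measure neither the spread of counts between windows nor replicate error. The difference between the genes was not tested.

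The rank of Ctgf rested on peaks of low score. Among peaks with a score of at least 100, the Ctgf window held 2, a number that 28.7% of the autosomal windows reached. The Cyr61 window held 1, which 47.2% reached.

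**Figure D3:**
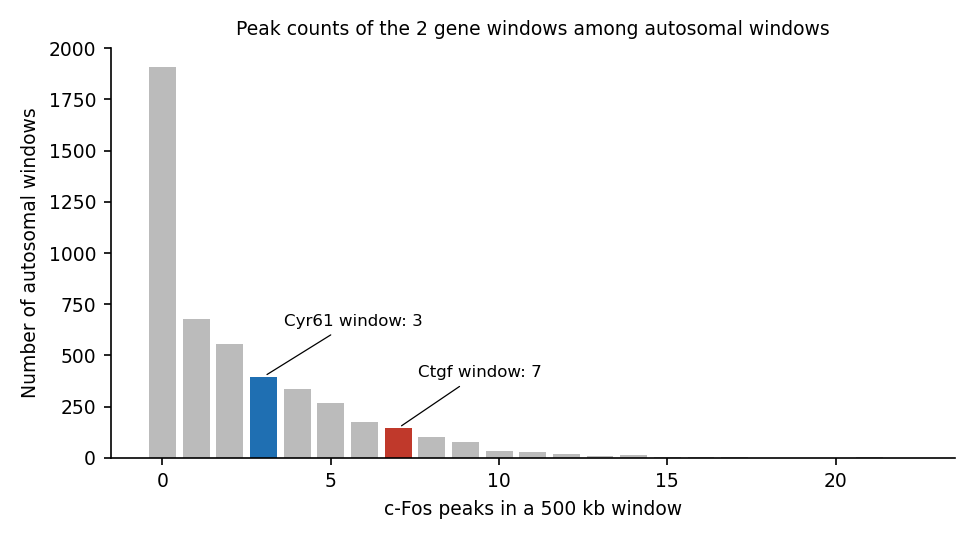
Number of autosomal 500 kb windows (vertical axis) by the number of c-Fos peaks they hold (horizontal axis), with the bars for the counts of the gene windows in colour. The bar at 3, the count of Cyr61, holds 396 windows and the bar at 7, the count of Ctgf, holds 145.

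At the given starts, Cyr61 had the nearer peak. A peak centre lay within 3.73 kb, the distance at Cyr61, of 3.25% of the window midpoints, and within 14.8 kb, the distance at Ctgf, of 10.4%. With the starts moved by 5 kb either way, the distance at Cyr61 was 1.27 to 8.73 kb and the share 0.945% to 7.03%, and at Ctgf the share was 7.60% to 13.3%. The median midpoint was 157 kb from its nearest peak. Midpoints are arbitrary positions and not promoters, so a gene start with a peak this near may be common among genes, which was not tested.

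Of the 10 peaks within 250 kb, 7 scored below the median of the list, but 10 peaks are too few to read this as a trait of the loci. The 7 Ctgf peaks had a median score of 84.51, with a range of 51.93 to 168.87, and the 3 Cyr61 peaks a median of 71.54, with a range of 55.33 to 146.53, against a median of 101 over the list. This depended on the distance: within 100 kb, with 2 peaks each, the median was 117 for Ctgf and 101 for Cyr61, and within 500 kb it was 84.5 for Ctgf and 109 for Cyr61. Of the 10 peaks together, 3 scored at least 100, where 50.7% of all peaks did. None reached 200, but the upper quartile of the list was 168, so most peaks of the list did not reach it either. A top score at least as high as that of the Ctgf window occurred in 32.5% of all autosomal windows. For the Cyr61 window the share was 36.7%. Both shares count the windows without a peak, 40.0% of all. Among the 2856 windows with a peak the median top score was 183, above the top score of either gene window. Among the 145 windows that also held 7 peaks the median top score was 267, and 24 of them (16.6%) had a top score no higher than that of Ctgf. Among the 396 windows with 3 peaks the median top score was 182, and 144 (36.4%) had one no higher than that of Cyr61.

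Peak widths ran from 588 to 1042 bp around Ctgf and from 757 to 1008 bp around Cyr61. The medians were 918 bp around Ctgf and 841 bp around Cyr61, against 949 bp in all. The Cyr61 median, of 3 peaks, lay below the lower quartile of the list, 864 bp. Of the 10 peaks, 6 were narrower than 949 bp, as were 49.9% of all peaks, a similar share. The 2 Ctgf peaks scoring at least 100 had a median width of 1014 bp, and the 1 such Cyr61 peak was 1008 bp wide. No median of the list at that score is given here to set beside them. Within 500 kb the medians were 935 bp for Ctgf and 955 bp for Cyr61. The 2 members wider than 1 kb were the top-scoring site of each gene. Such widths were not rare, as 67.4% of the list was narrower than the 1008 bp of the Cyr61 site. For the 1042 bp of the Ctgf site the share was 75.6%. In total the peaks covered 6122 bp (1.22%) of the Ctgf window and 2606 bp (0.521%) of the Cyr61 window.

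**Figure D4:**
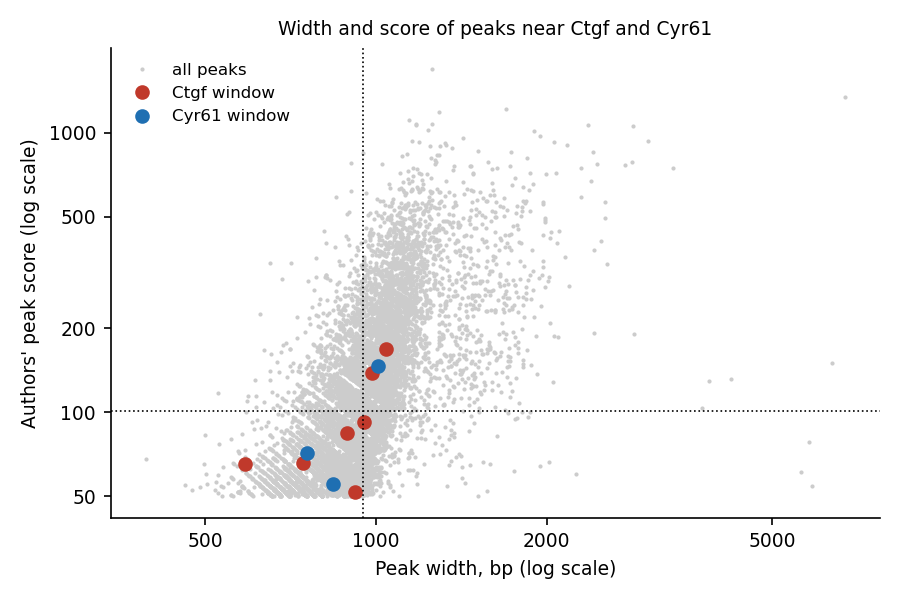
Authors' peak score (vertical axis, log scale) against peak width in bp (horizontal axis, log scale) for all 10870 peaks in grey, with the peaks near Ctgf and Cyr61 in colour and dotted lines at the medians of the list. Of the 10 coloured points, 7 lie below the median score of 101 and 6 to the left of the median width of 949 bp.

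Neither window held a close pair of peaks. None of the 6 neighbouring pairs around Ctgf or the 2 around Cyr61 had centres within 10 kb of each other, where 15.3% of neighbouring pairs on the autosomes did, a difference that 8 pairs are too few to read. Of the 8 gaps, 5 were under the autosomal median of 64.5 kb, although gaps inside a 500 kb window are limited by its size. Around Ctgf the gaps ran from 26.3 to 129 kb, and the narrowest separated the sites 144 and 170 kb from the start. Around Cyr61 the narrower of its 2 gaps, 22.7 kb, separated the peak beside the start from the upstream site.

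The 145 autosomal windows with 7 peaks mostly held closer pairs than the Ctgf window did. Of these, 35 (24.1%) had no pair within 10 kb, and 5 (3.45%) had a smallest gap of at least 26.3 kb. The median smallest gap among them was 4.80 kb. Of the 396 windows with 3 peaks, 304 (76.8%) lacked such a pair, as the Cyr61 window did. This comparison was chosen after the spacings had been seen and is a description of 1 list.

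Other genes lie in these regions, and no peak was assigned to a gene. In the RefSeq gene order of GRCm38.p6, the protein-coding neighbours of Ctgf are Moxd1, Stx7, which encodes an endosomal syntaxin, and Taar9, a trace amine receptor gene, on the side of lower coordinates. On the other side are Enpp1, which encodes an enzyme that makes pyrophosphate and so restrains mineralisation, its relative Enpp3, and Med23, which encodes a subunit of Mediator. The neighbours of Cyr61 are Znhit6, Col24a1, a fibrillar collagen gene, and Odf2l on the side of lower coordinates. On the other side, the one with the upstream site, are Ddah1, which encodes an enzyme that breaks down methylated arginines, Bcl10, a gene of NF-kB signalling, and 2410004B18Rik. Positions of these genes, and of the CCN genes Nov, Wisp1, Wisp2 and Wisp3, in mm9 were not used here.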

How the data were processed

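ChIP-seq libraries were grouped by the antibody in the labels, giving 1 c-Fos ChIP library and 1 input library. The deposited list holds the position of each peak on mm9 and the authors' score, whose scale the file does not state. CASAVA 1.8.2, MACS 1.4.1 and mm9 are named in the submitters' processing notes, without roles; for the aligner, read filters, peak threshold and use of the input, nothing is given in the sources used here. Starts are given 1-based.

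Distances run from the peak centre to the gene start, and no side was called within 5 kb. Windows of 500 kb were counted from position 1 of each autosome and kept if wholly between its first and last peak. They include assembly gaps. No test was made, since there is 1 library. Peaks of both windows were all named, by rule; neighbouring genes were the 3 protein-coding ones on each side. Members, lists and comparisons were chosen with earlier results of these data known. Alternatives changed the window, score minimum, peak set, start and spacing. Counting was tested on simulated positions. Software was matplotlib 3.10.9, pandas 2.3.3, scipy 1.17.1, numpy 2.4.6 and Python 3.11.15.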

Additional observations from a re-analysis of the deposited data

How the results depend on the processing

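A count was called unmoved within 1.5 times its main value, a distance within 5 kb and a highest score only if equal. A median was unmoved within the SD of the members, and a share within its 95% Wilson interval. Of 92 recomputed values, 66 were unmoved and 26 moved. Several could not move by construction, such as a distance with the start moved by 5 kb, so this tally does not measure stability. Within 100 kb the Ctgf count was 2, and Cyr61 also had 2 peaks there. At 500 kb Cyr61 had 9 peaks with a highest score of 180.53. At 1000 kb, a distance added after the data were seen, the counts were 14 for Ctgf and 24 for Cyr61. With a score of at least 100 they were 2 and 1, the median score was 153 for Ctgf and 147 for Cyr61, the median width was 1008 bp for Cyr61, and the nearest peak lay 41.1 kb from the Ctgf start and 26.5 kb from the Cyr61 start. The share of autosomal windows holding at least as many peaks as Ctgf was 22.8% within 100 kb, 18.9% within 500 kb, 26.5% within 1000 kb, 28.7% at a score of at least 100, 8.31% without the widest 5% of peaks, 7.96% with peaks within 2 kb joined and 15.5% among windows with a peak. For Cyr61 it was 22.8% within 100 kb, 18.9% within 500 kb, 5.52% within 1000 kb, 47.2% at a score of at least 100 and 56.7% among windows with a peak. Around window midpoints, 8.86% had at least as many peaks as Ctgf within 200 kb, 13.4% within 150 kb, 11.1% within 50 kb and 16.3% within 25 kb. The rank of Ctgf was thus similar at 200 and 250 kb. It was lower at the other distances given, without a steady trend, and at a score of at least 100. At a spacing of 50 kb each gene had 1 close pair. Moving the starts by 5 kb either way left the counts at 7 and 3, with the nearest peak 9.78 to 19.8 kb from Ctgf and 1.27 to 8.73 kb from Cyr61. Depth is unknown, so sites below the lowest score cannot be counted. No paired analysis was possible because 1 ChIP library leaves nothing to pair.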
